A study of Mus musculus with 12 samples.

Results

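Ba/F3 is a mouse cell line, described in the labels as pro-B cells, that normally grows in the presence of interleukin-3 (IL-3). Here Ba/F3 cells given ETV6 I209S P214L were compared with Ba/F3 cells given wild-type ETV6 (ETV6 WT). The members are the 6 libraries of these groups, 3 on each side, out of the 12 libraries in the series. All 12 libraries, controls included, came from cells with NRAS G12D, an active form of a RAS protein. The other groups had ZsGreen alone, a green fluorescent marker, or ETV6 P214L, and had 3 libraries each. Each ETV6 form was linked to ZsGreen through an internal ribosome entry site. Cells were sorted into medium lacking IL-3 on day 0, given fresh medium on day 2 and collected on day 3. The labels name no promoter, clone or sequencing batch. Nothing in them tells if the 3 libraries of each group were grown separately, so p-values measure only the spread between these libraries, which may be technical.

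ETV6 is a transcriptional repressor of the ETS family. It binds DNA around a GGAA core through its ETS domain, joins other ETV6 molecules through its pointed domain, and has to be in the nucleus to act. Proteins with a nuclear export sequence, a short stretch rich in leucine-like residues, are carried to the cytoplasm by the exportin XPO1. By the design, P214L makes such a sequence in ETV6 and I209S, added to P214L, breaks it. The question was whether cells with the double change have the transcript levels of cells with ETV6 WT. In blood, ETV6 is known for its part in stem cell maintenance and platelet formation.

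The 6 libraries held from 14301683 counts (I209S P214L 2) to 18607595 counts (ETV6 WT 3). The first library of each group stood apart from its fellows: ETV6 WT 1 and I209S P214L 1 lay at 22.4 and 21.2 on the second principal component, against -7.63 to -1.54 for the other 4. Their share of 18S ribosomal RNA was 1.581% and 1.352%, against 3.581% to 4.703% in the other 4. Malat1, a nuclear noncoding RNA, stood at 781 CPM in ETV6 WT 1 and 763 CPM in I209S P214L 1, and between 2608 and 3698 CPM in the other 4. I209S P214L 2 lay at 48.1 on the third component and had counts for 17510 genes, against 19400 to 20652 in the other 5. Results that rest on these libraries are given with and without them. Levels are in CPM, counts set against each library's total after TMM scaling. Of 24 B-lineage markers, 10 had no count in any of the 6 libraries, among them Igll1, Blnk and Rag1, and 18 had a mean under 1 CPM, so the labelled pro-B identity rests on few of its defining transcripts. Btk, a kinase of B cell receptor signalling that myeloid cells also use, was one of those present, at 157 CPM with ETV6 WT and 150 CPM with I209S P214L. Of the markers of other cells, 19 of 24 for T cells, 15 of 20 for neutrophils and 14 of 18 for fibroblasts had a mean under 1 CPM, while 6 of 31 for erythroid cells and 9 of 24 for megakaryocytes did.

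Etv6 transcripts, which include both the cells' own and any from the construct that match the mouse gene, stood at 122, 103 and 102 CPM in the ETV6 WT libraries. They stood at 112, 88.6 and 96.5 CPM in the I209S P214L libraries. The ranges overlapped, and the log2 fold change of I209S P214L over ETV6 WT was -0.13 (95% interval -0.33 to 0.06). ZsGreen cells, which had no ETV6 construct, held 81.7 ± 5.03 CPM of Etv6 and P214L cells 103.1 ± 4.64 CPM (SD, n = 3). The level of the construct alone was not measured, so the overlap does not show a like dose of it. Counts per gene do not show whether a read carries I209S, P214L or neither. Nras was at 76.5 ± 0.434 CPM with ETV6 WT and 77.3 ± 7.41 CPM with I209S P214L (SD, n = 3). Xpo1, the exportin gene, was at 166 ± 9.75 and 159 ± 3.98 CPM.

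Transcripts of the groups were close to each other. Of 14794 genes tested by edgeR's quasi-likelihood test, 5 (0.0338%) were called different at an adjusted p under 0.05, of which 2 (0.0135%) were higher and 3 (0.0203%) lower in I209S P214L cells. Of these, 1 (0.00676%) changed at least 2-fold. The count depended on the tool and filter: it was 23 with DESeq2, 38 with no filter on low counts and 60 with a replicate block on the 6 libraries, though the replicate numbers were not found to pair the libraries. The same fit called 4319 genes (29.2%) between P214L and ETV6 WT, and 4884 (33%) between I209S P214L and P214L. It called 5580 (37.7%) between ETV6 WT and ZsGreen, 6139 (41.5%) between I209S P214L and ZsGreen, and 751 (5.08%) between P214L and ZsGreen. These comparisons share libraries. Between I209S P214L and ETV6 WT, 512 genes (3.46%) had an unadjusted p under 0.05, and the libraries of the groups did not overlap for 1233 genes (8.33%), 585 with a higher and 648 with a lower estimate. The edgeR count also changed when libraries were left out: it was 1 without ETV6 WT 2, without ETV6 WT 3, without I209S P214L 2 and without I209S P214L 3. It was 7 without the first libraries of both groups.

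A p that misses the threshold does not show likeness, so the width of each gene's interval was used as well. For 8891 genes (60.1%) the whole 95% interval of the fold change between I209S P214L and ETV6 WT lay within 1.5-fold, and for 10512 genes (71.1%) it lay within 2-fold. For P214L against ETV6 WT the corresponding counts were 6159 (41.6%) and 9257 (62.6%). The share within 1.5-fold was 35.5% for ETV6 WT against ZsGreen, 33.5% for I209S P214L against ZsGreen, 39% for I209S P214L against P214L and 55.1% for P214L against ZsGreen. How much could be bounded depended on the level. Among 4626 genes with a mean of at least 50 CPM, 99.1% were bound within 1.5-fold between I209S P214L and ETV6 WT, and 75.5% between P214L and ETV6 WT. Among 5459 genes of 5 to 50 CPM the shares were 78.6% and 48.7%. Among 2480 genes of 1 to 5 CPM the share was 0.685%, and among 2229 genes under 1 CPM it was 0%, so differences of 1.5-fold in such genes could not be bounded at this depth. The count within 1.5-fold was 8178 without the first libraries of both groups.

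**Figure D1:**
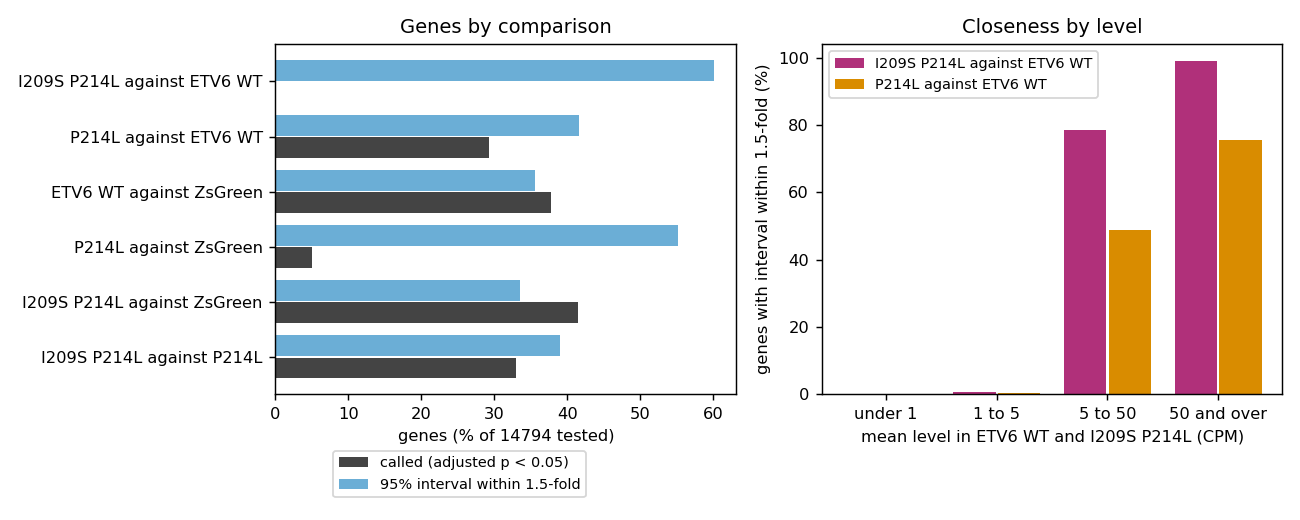
Left, the percentage of 14794 genes called (dark bars) and with a 95% interval of the fold change within 1.5-fold (light bars) in each pair of groups. I209S P214L against ETV6 WT has 0.0338% called and 60.1% within 1.5-fold. Right, the percentage within 1.5-fold by mean level in ETV6 WT and I209S P214L cells, for I209S P214L and for P214L, each against ETV6 WT; it reaches 99.1% and 75.5% at 50 CPM and over.

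Of the 4626 genes of at least 50 CPM, 42 were not bound within 1.5-fold, and for 28 of these the interval included 0. Pseudogenes made up 14 of the 42 and ribosomal protein genes or their retrocopies 8, and these 22 intervals all included 0. Reads of such copies are hard to assign, so their values are uncertain. Noncoding RNAs made up 8, Malat1 and 18S ribosomal RNA among them. The other 12 were protein-coding genes, among them Angptl2, Hmox1, H1f2, Slc37a2 and Arhgap28, which appear below. At 5 CPM or more, 25 genes combined an estimate past 1.5-fold with no overlap between the groups, 18 higher and 7 lower with I209S P214L, and 4 of the 25 were called.

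On the first principal component, which held 40.8% of the variance of the 12 libraries, the ETV6 WT libraries lay at 39, 38.5 and 39.3 and the I209S P214L libraries at 45.1, 53.2 and 46.7. P214L lay between -35.7 and -34.4 and ZsGreen between -61.2 and -47.1. The I209S P214L libraries thus lay on the side of ETV6 WT, and farther from ZsGreen than any ETV6 WT library did. The root-mean-square log2 difference between the group means was 0.3175 for I209S P214L and ETV6 WT and 0.7023 for P214L and ETV6 WT, on log2 CPM with a prior count of 2. Between single libraries it ran from 0.3805 (ETV6 WT 1 and I209S P214L 1) to 0.7804 (ETV6 WT 1 and I209S P214L 2) across these groups, from 0.5021 to 0.6476 within ETV6 WT and from 0.6196 to 0.7526 within I209S P214L. A library of one group was therefore about as far from a library of the other as from its own fellows.

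The genes called included Ms4a3 and the noncoding F630028O10Rik, lower with I209S P214L, and Angptl2 and Wnt10b, higher. F630028O10Rik is outside the rule for named genes and was chosen after its values were seen. The promoters of 3 of them, as RefSeq gives them on GRCm38.p6 from 250 bases before to 50 bases after the gene's start, are shown because ETV6 binds a GGAA core. Capitals mark GGAA and its complement TTCC, and each sequence reads 5′ to 3′ on the strand of its gene. RefSeq's table lists the promoters of Angptl2 (chr2:33215711-33216010, plus strand), Wnt10b (chr15:98778101-98778400, minus strand) and Ms4a3 (chr19:11640802-11641101, minus strand), and these 3 of the 4 genes were matched. F630028O10Rik was not matched.
Angptl2: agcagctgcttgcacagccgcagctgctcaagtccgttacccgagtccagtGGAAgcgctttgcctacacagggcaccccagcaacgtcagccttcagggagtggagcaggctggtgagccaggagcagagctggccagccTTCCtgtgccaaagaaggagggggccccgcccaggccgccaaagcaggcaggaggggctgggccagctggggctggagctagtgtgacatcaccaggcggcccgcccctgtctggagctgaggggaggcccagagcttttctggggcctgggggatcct
Wnt10b: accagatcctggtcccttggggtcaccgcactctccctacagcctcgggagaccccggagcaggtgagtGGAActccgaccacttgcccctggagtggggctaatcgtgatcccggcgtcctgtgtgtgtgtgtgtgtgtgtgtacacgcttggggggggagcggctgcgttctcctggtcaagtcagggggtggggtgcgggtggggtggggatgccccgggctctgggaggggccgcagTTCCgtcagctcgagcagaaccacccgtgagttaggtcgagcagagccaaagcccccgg
Ms4a3: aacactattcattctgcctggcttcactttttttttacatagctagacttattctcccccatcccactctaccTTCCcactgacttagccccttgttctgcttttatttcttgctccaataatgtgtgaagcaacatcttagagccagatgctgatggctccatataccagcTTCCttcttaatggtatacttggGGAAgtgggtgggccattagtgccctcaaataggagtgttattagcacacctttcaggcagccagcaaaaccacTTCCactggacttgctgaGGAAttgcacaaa
Counted on both strands, GGAA occurs 2 times in the Angptl2 window, 2 times in that of Wnt10b and 5 times in that of Ms4a3. Of the 27025 promoters of this length in the table, 96% hold at least 1 GGAA, with a median of 3, and 28.6% hold 5 or more. The longer GGAAGT, which contains GGAA, occurs 2 times in the Ms4a3 window, in neither of the others, and in 24% of all promoters. A match is a run of letters and not a measured site.

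Ms4a3 encodes a membrane protein of granulocyte and monocyte progenitors (ENSMUSG00000024681; chromosome 19, 11606860 to 11618215 on mm39, the build of the deposited coordinates). Its levels were 51, 51.1 and 53.1 CPM with ETV6 WT and 37.4, 28.4 and 34.1 CPM with I209S P214L, without overlap. It fell 1.55-fold (-0.63 ± 0.09 SE, adjusted p = 0.0141). It stood at 202 ± 10.2 CPM in ZsGreen cells and 358 ± 33.6 CPM in P214L cells, so the cells with ETV6 WT and with I209S P214L lay below both. Ms4a3 was not called by limma-voom, from the 6 libraries alone, or without ETV6 WT 2, ETV6 WT 3, I209S P214L 2 or I209S P214L 3, and its estimate ran from -0.73 to -0.53 over the alternatives. In bulk RNA, fewer cells of a type and less RNA per cell cannot be told apart.

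Angptl2 encodes an angiopoietin-like protein that cells secrete (ENSMUSG00000004105; chromosome 2, 33106081 to 33137729). It stood at 110, 109 and 102 CPM with ETV6 WT and at 165, 175 and 187 CPM with I209S P214L, so the lowest I209S P214L library was above the highest ETV6 WT library. It rose 1.64-fold (0.72 ± 0.10 SE, adjusted p = 0.0141). ZsGreen cells held 4.97 ± 0.322 CPM and P214L cells 5.23 ± 1.5 CPM. The order of the 4 groups put I209S P214L above ETV6 WT and ETV6 WT above the other groups. Angptl2 was not called without ETV6 WT 2, ETV6 WT 3, I209S P214L 2 or I209S P214L 3.

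Wnt10b encodes a secreted WNT ligand that acts through beta-catenin (ENSMUSG00000022996; chromosome 15, 98668593 to 98676031). It stood at 6.04, 7.01 and 5.85 CPM with ETV6 WT and at 19.3, 18 and 20.3 CPM with I209S P214L. It rose 3.04-fold (1.61 ± 0.25 SE, adjusted p = 0.0216), and it was the gene called that changed at least 2-fold. ZsGreen cells held 0.453 ± 0.200 CPM and P214L cells 0.0822 ± 0.0893 CPM, so its transcripts were seen mainly with the other ETV6 forms. The estimate stayed between 1.55 and 1.69 under the 23 alternatives, but Wnt10b was not called when any 1 of the 6 libraries, or the first libraries of both groups, were left out.

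F630028O10Rik is a long noncoding RNA gene (ENSMUSG00000078122; chromosome X, 95283498 to 95287267). It stood at 109, 133 and 135 CPM with ETV6 WT and at 87, 92.6 and 90.8 CPM with I209S P214L. It fell by 0.48 on the log2 scale (adjusted p = 0.045). ZsGreen cells held 106.9 ± 7.27 CPM, between the means with I209S P214L and with ETV6 WT, and P214L cells held 237 ± 4.74 CPM. F630028O10Rik was called under 6 of the 23 alternatives. Per gene length, in deposited FPKM, the mean level in ETV6 WT cells was 37 for F630028O10Rik, 27.1 for Ms4a3, 16.8 for Angptl2 and 1.83 for Wnt10b.

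**Figure D2:**
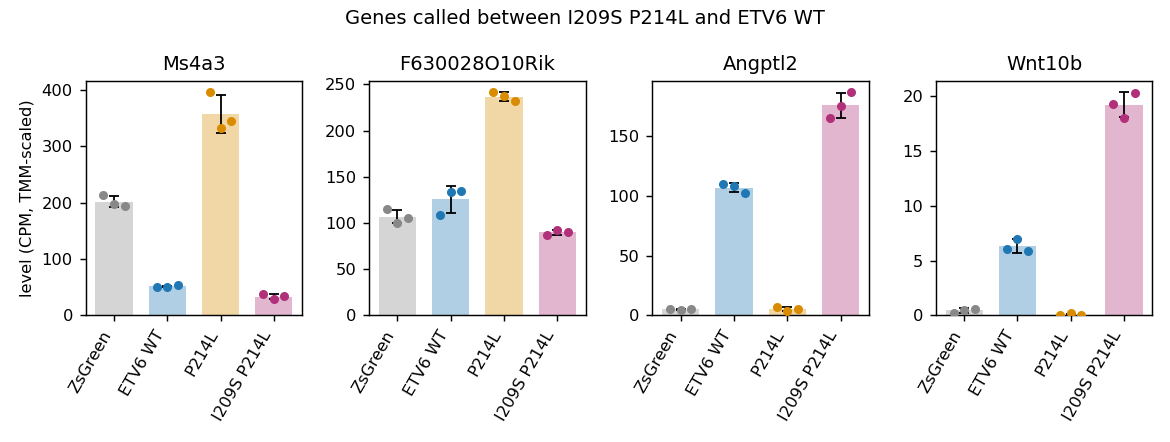
Levels of 4 genes called between I209S P214L and ETV6 WT, in CPM on a linear axis from 0, in the 4 groups. Points are libraries, bars are means and error bars are SD (n = 3). For each gene the 3 I209S P214L points lie apart from the 3 ETV6 WT points; Angptl2 and Wnt10b are near 0 in ZsGreen and P214L cells.

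The next question was whether 40 genes that differed between ETV6 WT and ZsGreen cells were at the same level with I209S P214L. The list of these 40 genes came from an earlier pass over these data, so their change with ETV6 WT is a description. It is not a ranking of the largest changes. Spi1, at 148 CPM with ZsGreen and 254 CPM with ETV6 WT, is on it, while Wnt10b, described above, is not. Of the 20 that stood above ZsGreen in ETV6 WT cells, 15 had an interval within 1.5-fold and 19 within 2-fold between I209S P214L and ETV6 WT, and 1, Angptl2, was called. Their estimates ran from -0.22 (Adgre1, a macrophage receptor) to 0.72 (Angptl2) on the log2 scale, with a median of 0.09. C3ar1, the receptor for complement C3a, stood at 128, 129 and 131 CPM with ETV6 WT and at 135, 128 and 136 CPM with I209S P214L, against 7.97 CPM with ZsGreen and 14.1 CPM with P214L. The ranges of the ETV6 groups overlapped (0.04, interval -0.20 to 0.28). Parvb, an adaptor of cell adhesion, stood at 127.5, 98.9 and 99.6 CPM with ETV6 WT and at 102.8, 110.7 and 110.6 CPM with I209S P214L, against 5.57 CPM with ZsGreen. Csf2rb, the receptor chain shared by IL-3, GM-CSF and IL-5, averaged 2027 ± 181.5 CPM with ETV6 WT and 2158 ± 139 CPM with I209S P214L (0.09, interval -0.06 to 0.24), against 343 CPM with ZsGreen. Its close copy Csf2rb2 averaged 2391 and 2504 CPM, though reads may be split between these copies. The interferon factor Irf7 was at 64.5 and 65.9 CPM, the class I molecule H2-T23 at 318 and 316 CPM, and the mast cell and melanocyte factor Mitf at 34.6 and 37.8 CPM. These genes were thus at like levels in both groups, with overlapping libraries.

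Of the 40 genes, 11 did not overlap between the groups, beside 12.6% of all list members and 8.33% of all genes. Among those above ZsGreen, these were Angptl2, Slc37a2, Ahnak2, Sqstm1, Aqp3, Tmem171 and Slc7a11. Each was higher in all I209S P214L libraries than in any ETV6 WT library, and only Angptl2 passed edgeR's test. Slc37a2, a transporter of sugar phosphates, stood at 52, 51.2 and 50.6 CPM with ETV6 WT and at 64.2, 79.8 and 61.4 CPM with I209S P214L (0.42, adjusted p = 0.951). Ahnak2, a giant scaffold protein, stood at 170, 165 and 165 against 199, 200 and 211 CPM (0.28, adjusted p = 0.452). The autophagy receptor Sqstm1 stood at 1015, 943 and 893 against 1242, 1070.4 and 1124 CPM (0.27, adjusted p = 0.767). DESeq2 called Ahnak2 (adjusted p = 0.0144), and the replicate block on the 6 libraries called Ahnak2 (0.0191), Slc37a2 (0.0191) and Sqstm1 (0.0145), each as an adjusted p. Aqp3, a water and glycerol channel, Tmem171, a membrane protein, and Slc7a11 had estimates of 0.36, 0.57 and 0.11.

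The 20 genes below ZsGreen in ETV6 WT cells were mostly at low levels in both groups. Only 5 of them had at least 5 CPM with ETV6 WT or I209S P214L, and of these 4 were bound within 1.5-fold, with estimates from -0.47 to -0.02. Over all 20, none was called by edgeR, 8 were bound within 2-fold, and the median estimate was -0.32. Nolc1, a nucleolar assembly factor, was at 132 and 130 CPM (against 261 with ZsGreen), Odc1, the first enzyme of polyamine synthesis, at 118 and 113 CPM, and Psat1, an enzyme of serine synthesis, at 114.2 and 109.5 CPM. The progenitor factor Lmo2 stood at 22, 20.9 and 18.7 CPM with ETV6 WT and at 15.2, 13.7 and 15.5 CPM with I209S P214L, without overlap (-0.47, adjusted p = 0.421; called by DESeq2 at an adjusted p of 0.05 as rounded). Cstdc4, a stefin-like gene and the lowest estimate of the 20, stood at 1.22, 1.65 and 1.33 CPM with ETV6 WT and at 0.43, 0.906 and 0.123 CPM with I209S P214L (-1.57, interval -2.74 to -0.43, adjusted p = 0.951). The groups did not overlap, and Cstdc4 was called with no filter on low counts (adjusted p = 0.000815). That fit also called genes whose libraries overlapped between the groups, such as Gapdh (-1.28, adjusted p = 3.4e-26). Its calls, here and below, are therefore to be read with caution. Fgf23, a hormone of phosphate balance, was at 0.837 ± 0.0680 CPM with ETV6 WT and 0.629 ± 0.580 CPM with I209S P214L, against 108.5 CPM with ZsGreen and 68.3 CPM with P214L. Alox5, the lipoxygenase that starts leukotriene synthesis, stood at 3.48, 2.85 and 2.39 CPM with ETV6 WT and at 1.72, 1.67 and 1.29 CPM with I209S P214L (-0.89, interval -1.38 to -0.40, adjusted p = 0.581), without overlap, against 46.3 CPM with ZsGreen and 23.8 CPM with P214L. Intervals were widest for genes with the fewest counts, such as S100a8 (-4.68 to 2.87, from 2 counts in all with ETV6 WT and 1 with I209S P214L) and Shank3 (-3.97 to 0.76, from 13 and 4).

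**Figure D3:**
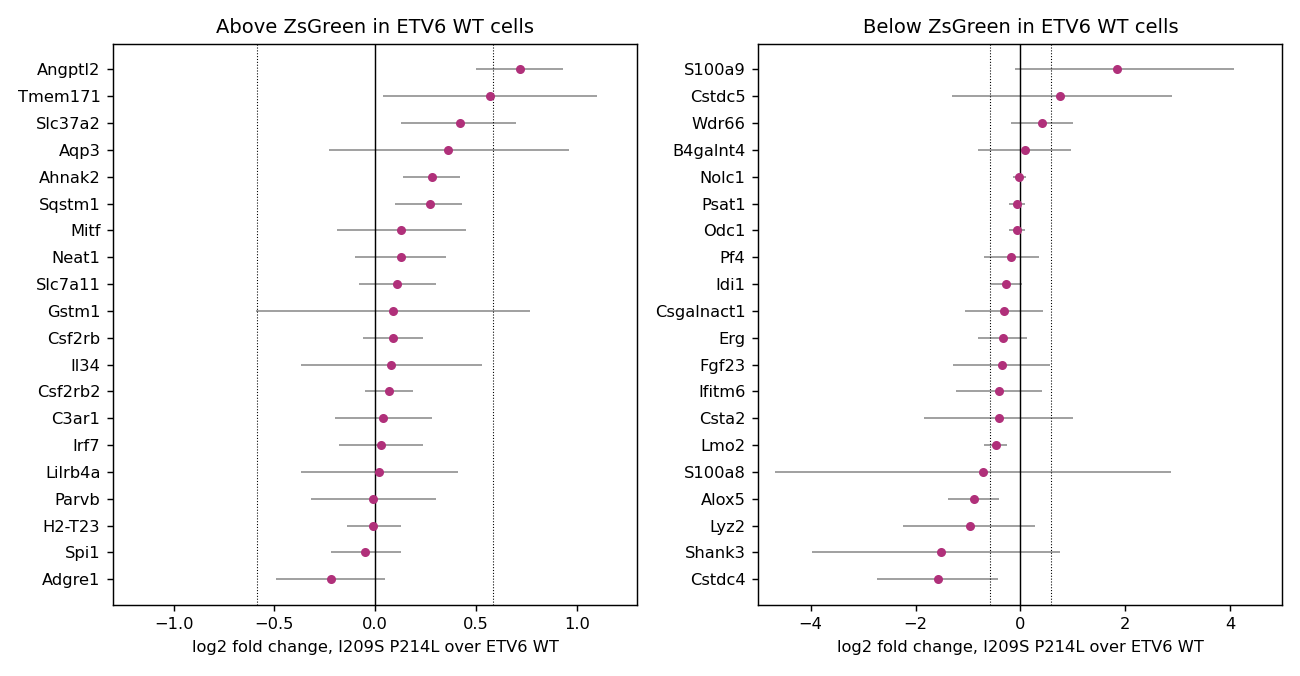
Log2 fold change of I209S P214L over ETV6 WT (points) with 95% intervals (lines) for the 20 genes above (left) and the 20 below ZsGreen in ETV6 WT cells (right). Dotted lines mark 1.5-fold, and the horizontal scales differ. On the left 15 intervals lie between the dotted lines, on the right 4.

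Across 44 gene lists with 914 distinct members tested, 2 members were called, and 42 lists had no member called. Over all 14794 genes tested it was 5 (0.0338%). Angptl2, described above, counts through the list of 40 genes, which was taken from these same data. Of the 914, 726 (79.4%) were bound within 1.5-fold; at 5 CPM or more it was 90% of list members and 88% of all genes. The median estimate of all genes was -0.01 and 47.3% of estimates were above 0. The list medians lay within 0.1 of 0 for 36 of the 44. For 7 of the 44 lists the summed levels of the libraries did not overlap between the groups. The lists below are those for the pathways of the study and those whose members leaned most; a lean is a description with no test.

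Transcripts of the RAS pathway and of its targets had medians near 0, though smaller shares of the MAPK and STAT5 target lists were within 1.5-fold than the 79.4% of all list members. Protein activity was not measured. The RAS proteins and MAPK kinases had 21 of 22 members within 1.5-fold and a median of -0.01, and the MAPK target and feedback genes 20 of 26 and 0.06. The feedback phosphatase Dusp6 was at 273, 220 and 239 CPM with ETV6 WT and at 236, 199 and 215 CPM with I209S P214L. STAT5 targets, read out downstream of the IL-3 receptor, had 15 of 21 within 1.5-fold and a median of -0.03. ETS factors had 14 of 16 and -0.03; Spi1, the myeloid factor PU.1, was at 254 and 246 CPM. Of the BCL2 family, 10 of 13 were within 1.5-fold, with the pro-apoptotic Bcl2l11 at 83.8 and 92.6 CPM (0.14, interval -0.04 to 0.33). Nuclear transport genes had 37 of 38 within 1.5-fold.

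Interferon and antigen presentation genes had medians near 0 as well. The 41 interferon genes summed to 2157, 2161 and 2124 CPM in the ETV6 WT libraries and to 2145, 2151 and 2176 CPM in the I209S P214L libraries, against 1552 to 1612 CPM with ZsGreen. The sums of the ETV6 groups overlapped, 32 of the 41 genes were within 1.5-fold, and the median was -0.02. Oasl2, an antiviral synthetase-like protein, was at 48.9 and 46.9 CPM. Of 20 genes of class I presentation, 19 were within 1.5-fold, with a median of 0.02. B2m, the light chain of class I molecules, was at 583 and 624 CPM. Of 7 genes of class II presentation only 3 were within 1.5-fold, with a median of -0.03. Of the 40 lysosome and autophagy genes, all 40 were within 1.5-fold.

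Growth genes had estimates mostly below 0, with no member called. Of 34 mitosis and spindle genes, all were within 1.5-fold, 31 had an estimate below 0 and the median was -0.12. The spindle motor Kif11 stood at 154, 154 and 158 CPM with ETV6 WT and at 135.7, 128.6 and 139.5 CPM with I209S P214L, without overlap (-0.21, adjusted p = 0.767). The mitotic kinases Plk1 (-0.25) and Ttk (-0.27) did not overlap either. Kif11, Plk1 and Ttk are among only 5 of the 34 that did not overlap, beside 12.6% of all list members and 8.33% of all genes. Of 39 DNA replication genes the median was -0.09, and of 40 genes of MYC and ribosome biogenesis it was -0.07, with 38 within 1.5-fold. The proliferation marker Mki67 was at 629 ± 53.3 and 592 ± 33.5 CPM, Top2a, which untangles DNA, at 694 and 663 CPM, and Myc at 112 and 106 CPM. Cholesterol genes had a median of -0.08, with the sterol enzyme Msmo1 at 29.7 and 24.7 CPM. The mitosis median was -0.08 without the first libraries of both groups, and without them and I209S P214L 2 it was -0.06.

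Histone genes, by contrast, leaned higher with I209S P214L. The 22 tested genes of replication-dependent and linker histones summed to 562.5, 470.1 and 538.1 CPM with ETV6 WT and to 661.5, 725.8 and 711.7 CPM with I209S P214L, without overlap. Their median was 0.46, 20 of 22 estimates were above 0, none was called by edgeR, 1 was within 1.5-fold, and 4 of the 22 did not overlap. Over all list members 12.6% did not overlap, and over all genes 8.33%. The linker histone gene H1f2 stood at 425, 330 and 386 CPM with ETV6 WT and at 497.5, 514.5 and 509.3 CPM with I209S P214L (0.42, adjusted p = 0.464), and its means of 380.3 and 507.1 CPM made up most of the summed means of 523.6 and 699.7 CPM. H1f3 stood at 20.4, 20.6 and 21 against 24.1, 32.1 and 32.4 CPM (0.51), and the core histone gene H2bc4 at 27, 21.3 and 26.6 against 34.4, 34.6 and 38.5 CPM (0.52). H1f2 was called by DESeq2 (adjusted p = 0.0144), with no filter (0.000109) and with the replicate block on the 6 libraries (0.00221), and this block also called H1f3 (0.0413) and H2bc4 (0.0167). Most replication-dependent histone transcripts lack a poly-A tail. Transcripts followed for stress and RNA quality, which include Malat1, summed to 1301, 3284 and 3345 CPM with ETV6 WT and to 1339, 4378 and 4188 CPM with I209S P214L, so they too were highest in I209S P214L 2 and 3, while the sums of the groups overlapped; their part in the histone result was not tested. Without the first libraries of both groups, which had the lowest of these sums, the histone median was 0.56, and without I209S P214L 2 it was 0.36.

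Genes of the NRF2 antioxidant response also leaned higher, with 21 of 26 estimates above 0 and a median of 0.11. They summed to 7836, 7567 and 7824 CPM with ETV6 WT and to 8455, 8285 and 8275 CPM with I209S P214L, without overlap. Hmox1, which breaks down haem, stood at 122, 127 and 119 against 169, 153 and 167 CPM (0.41, adjusted p = 0.421). Srxn1, which repairs peroxiredoxins, stood at 142.7, 130.2 and 134.5 against 173, 184.1 and 159.7 CPM (0.34, adjusted p = 0.421). Both were called by DESeq2 (adjusted p = 0.0145 each), with no filter (0.00502 for Hmox1 and 0.0445 for Srxn1) and with the replicate block on the 6 libraries (0.00221 and 0.00979), and Hmox1 also by edgeR without ZsGreen 1 (0.0434). The ferritin light chain Ftl1 averaged 2408 and 2759 CPM (0.20, adjusted p = 0.779), a large part of the summed means of 7742 and 8338 CPM. The glutathione transferase Gsta4 averaged 11.4 and 16.3 CPM (0.52). Without the first libraries of both groups the median was 0.07, and without them and I209S P214L 2 it was 0.05.

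Neutrophil and megakaryocyte genes gave the lowest medians. The 13 tested neutrophil and granule genes summed to 42.5, 40.5 and 40 CPM with ETV6 WT and to 33.1, 32.1 and 33.9 CPM with I209S P214L, without overlap, against 120.8 to 139.9 CPM with ZsGreen and 249.6 to 307.4 CPM with P214L. Their median was -0.50 and 3 of 13 estimates were above 0, but 9 of the 13 could not be bound within 2-fold. The granule protein gene Ngp stood at 2.2, 3.59 and 2.77 against 1.34, 1.05 and 1.96 CPM (-0.97, adjusted p = 0.489), the gelatinase Mmp9 at 6.1 and 4.24 CPM (-0.53), and the integrin Itgam at 1.07 and 0.348 CPM. The calprotectin subunit gene S100a9 had the opposite sign, at 0, 0.114 and 0.0532 against 0.0537, 0.209 and 0.43 CPM (1.85, interval -0.10 to 4.07), from 3 and 11 counts in all. Without the first libraries of both groups the median was -0.27. The 14 tested macrophage and monocyte genes, by contrast, had a median of -0.01, with 7 estimates above and 7 below 0. Cd33, a myeloid receptor that binds sialic acid, stood at 3.66, 4.27 and 5.16 against 1.72, 0.697 and 3.01 CPM (-1.25, adjusted p = 0.623; DESeq2 adjusted p = 0.0413, no filter 0.00023), and Mpeg1, a pore-forming protein of macrophages, at 12.3 and 9.66 CPM.

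Megakaryocyte and platelet genes had a median of -0.19, with 13 of 16 estimates below 0 and 9 of 16 within 1.5-fold. They summed to 4044, 3553 and 3897 CPM with ETV6 WT and to 3461, 3422 and 3435 CPM with I209S P214L, without overlap. Plek, a substrate of protein kinase C in platelets, stood at 469, 478 and 522 against 380, 398 and 399 CPM (-0.32, adjusted p = 0.194). Plek was called by DESeq2 (adjusted p = 0.000914), with no filter (0.00964) and with the replicate block on the 6 libraries (0.0103). The platelet integrin Itga2b stood at 880, 701 and 721 against 692, 595 and 614 CPM (-0.28, adjusted p = 0.767; 0.0205 with that block). The chemokine gene Ppbp was at 16.8 and 12 CPM (-0.48) and the receptor subunit Gp9 at 13 and 9.16 CPM (-0.50). The median was -0.18 without the first libraries of both groups.

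Erythroid and mast cell genes had medians near 0. Of 28 erythroid genes 12 had estimates above 0, with a median of -0.03. The embryonic globin Hbb-y, with no count in ZsGreen or P214L libraries, stood at 2.87, 2.34 and 3.19 CPM with ETV6 WT and at 5.91, 8.23 and 6.57 CPM with I209S P214L (1.3, adjusted p = 0.785; 0.0106 with the replicate block on the 6 libraries). The adult globin Hbb-bs was at 8.07 ± 3.14 and 15.2 ± 4.3 CPM, with overlapping libraries, while the erythroid factor Klf1 was at 24.1 and 19.1 CPM (-0.33). Globin copies may share reads. Of 12 mast cell and basophil genes 7 were above 0; Hdc, the enzyme that makes histamine, stood at 1.4, 0.912 and 1.22 against 3.33, 2.44 and 2.58 CPM (1.24, adjusted p = 0.767), the IgE receptor subunit Ms4a2 at 1.22 and 0.503 CPM (-1.29), and Cd63, a granule membrane protein, at 503 and 555 CPM (0.14). The 5 T-lineage genes tested, of 24, had a median of 0.25 with 4 estimates above 0, and summed to 111.5, 92.8 and 93.4 CPM with ETV6 WT and to 126.6, 119.7 and 123.4 CPM with I209S P214L, without overlap. Among them Gzmb, a protease of cytotoxic granules, stood at 21.2, 20.1 and 22.4 against 32.4, 28 and 32.7 CPM (0.55, adjusted p = 0.56; 0.0125 with the replicate block on the 6 libraries) and the adaptor Lat at 73.1 and 86.7 CPM (0.25). The 12 tested genes of leukotriene and prostaglandin synthesis had a median of -0.07, with 6 estimates above and 6 below 0. Of these eicosanoid genes, Ptgs1 was at 288 and 250 CPM (-0.21) and Alox5ap, which presents substrate to Alox5, at 57 and 49.7 CPM (-0.20).

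**Figure D4:**
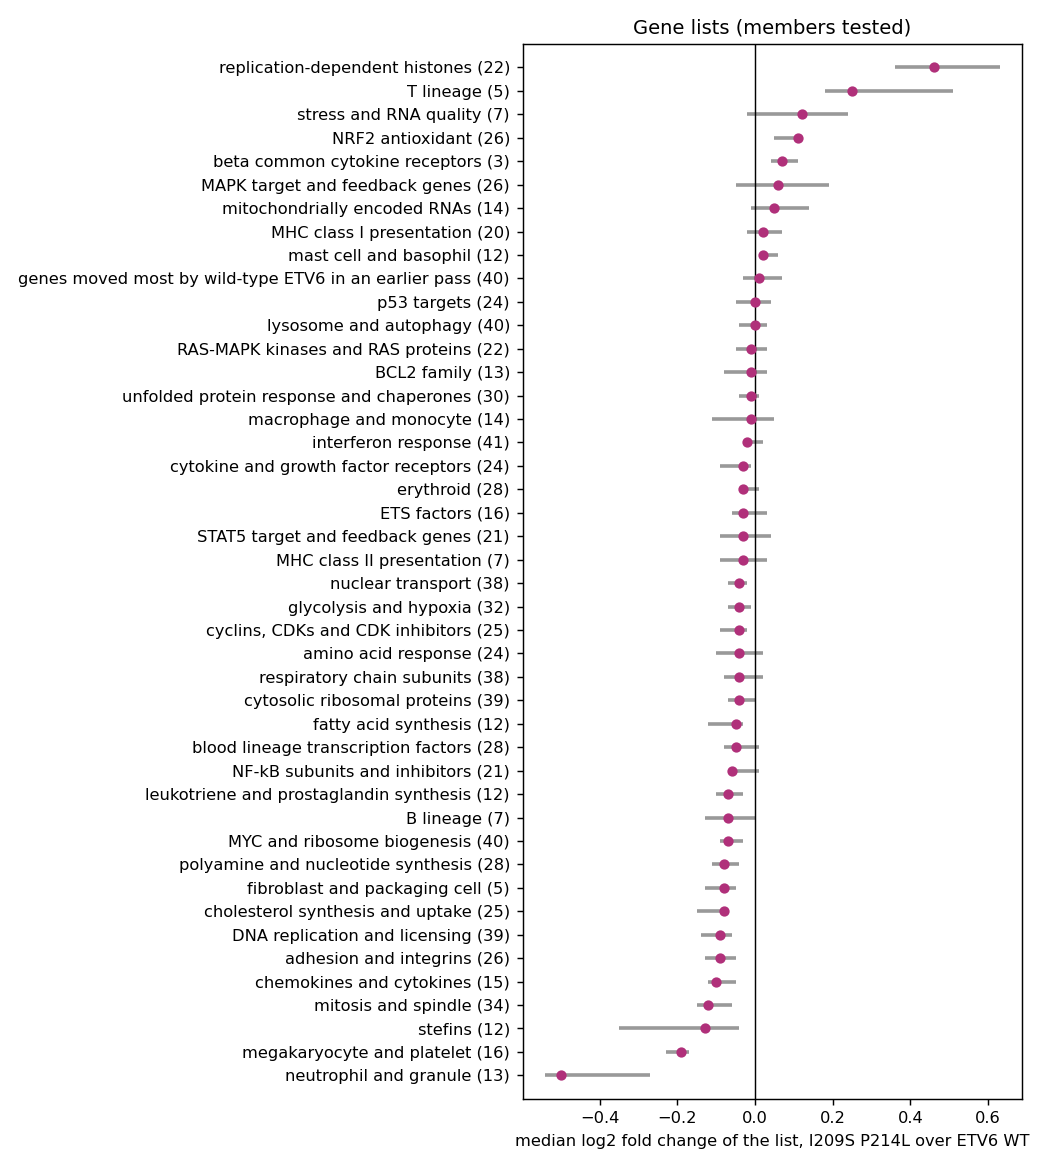
Median log2 fold change of I209S P214L over ETV6 WT for each of 44 gene lists (points), with the range of the median over the 23 alternatives (lines) and the number of members tested in brackets. Histone genes lie highest at 0.46 and neutrophil genes lowest at -0.50, and 36 medians lie within 0.1 of 0.

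The authors' deposited table for the same comparison lists 15 genes at an adjusted p under 0.05, of which 9 are higher and 6 lower with I209S P214L, and it includes the 5 genes called here. Its other 10 genes include 6 that were above 50 CPM here. In the authors' deposited table Hmox1 has a log2 fold change of 0.41, H1f2 0.42, Plek -0.32, Lcp1 -0.30, Klf10 0.33 and Arhgap28 0.35. The remaining 4 in the authors' deposited table are Nxpe5 (-0.68), Add2 (1.71), Acsbg1 (0.96) and Hbb-y (1.3). In the counts here, Klf10, a TGF-beta-induced repressor, stood at 162, 149 and 149 CPM with ETV6 WT and at 190.9, 193.5 and 191.4 CPM with I209S P214L (0.32, adjusted p = 0.367). Lcp1, an actin bundler of white cells, stood at 344, 323 and 323 against 278, 264 and 258 CPM (-0.31, adjusted p = 0.421). Add2, a protein of the red cell membrane skeleton, stood at 1.59, 1.03 and 1.75 against 3.92, 5.3 and 5.03 CPM (1.70, adjusted p = 1). For all 3 the groups did not overlap. DESeq2 called Klf10 (adjusted p = 0.00186) and Lcp1 (0.0144), and the replicate block on the 6 libraries called Klf10 (0.00979), Lcp1 (0.0113) and Add2 (0.0106).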

How the data were processed

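Per the submitters' processing notes, reads were aligned with HISAT2 2.0.5 to mm39 and counted with featureCounts 1.5.0-p3. The protocol describes both directional and non-directional libraries, so strand is not known and overlapping genes are uncertain. The deposited table gives raw counts for 56748 genes, FPKM (signal per gene length and depth), and, for the authors' comparisons, mean normalised count signal, log2 fold changes and p-values; the tool of the authors' test is not given in the sources used here. Counts were fitted with edgeR 4.0.16 in R 4.3.3: filterByExpr over 4 groups kept 14794 genes, scaling was by TMM, the quasi-likelihood model had a mean for each group of the 12 libraries, and p-values were adjusted by Benjamini-Hochberg over all genes tested. Adjusted p-values are from this fit unless named otherwise. The 95% intervals use the fitted weights and moderated dispersion, cover no uncertainty beyond the spread of these libraries, and reads carry no molecular identifiers. The method was tested on simulated data. Alternatives were RLE and upper-quartile scaling, no filter, 1 CPM in 3 libraries, DESeq2 1.42.0, limma-voom (limma 3.58.1), the 6 libraries alone, a replicate block, and libraries left out.

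Named genes were up to 14 rises and 14 falls among called protein-coding genes with at least 5 CPM and no overlap between groups. Unnamed gene models were left out. Added to these were up to 3 called members a list, the 40 genes listed in an earlier pass, and Etv6, Nras and Xpo1. Other examples were chosen after their values, under the alternatives too, were seen. The members and the 44 lists were chosen with earlier results of these data known. Coordinates are those deposited, except promoters, which are RefSeq's on GRCm38.p6. Some results, 1 of the 5 called genes among them, are not reported here.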

Additional observations from a re-analysis of the deposited data

How the results depend on the processing

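Over 23 alternatives the number of genes called between I209S P214L and ETV6 WT ran from 1 to 60. It was 38 with no filter on low counts (14 higher, 24 lower, 8 at least 2-fold, 11 list members), of which 16 had libraries that overlapped between the groups, and 23 with DESeq2 (13 higher, 10 lower, 3 at least 2-fold, 11 list members). It was 3 with limma-voom and 3 from the 6 libraries alone, each with 1 lower. RLE scaling, upper-quartile scaling and a filter of 1 CPM gave 4. Without the first libraries of both groups 3 genes were at least 2-fold. Without these and I209S P214L 2, an alternative added after seeing the data, 1 gene was called (0 higher, 1 lower, 0 at least 2-fold, 1 list member). With 1 library left out at a time, 1 to 6 genes were called, 0 to 3 higher, 1 to 3 lower, 0 to 1 at least 2-fold and 1 to 3 list members. The cause of these shifts was not tested. The same 5 genes were among those called with no filter, by DESeq2 and with the block on 6 libraries. Genes bound within 1.5-fold numbered 8262 to 9027 with 1 library left out. The root-mean-square difference was 0.147 over genes of at least 5 CPM, and 0.292 to 0.438 with 1 library left out.

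Replicate numbers are shared by the groups, but the labels do not tie them to a culture or day. Deviations of same-numbered ETV6 WT and I209S P214L libraries correlated at 0.528, 0.0786 and 0.254, so the numbers do not pair the libraries by the rule used (each over 0.1), and ETV6 WT 2 correlated more with I209S P214L 3 (0.147). With a replicate block over 12 libraries 4 genes were called. With a replicate block on the 6 libraries it was 60 (40 higher, 20 lower, 9 at least 2-fold, 19 list members), of which 11 had overlapping libraries.

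Signs were followed only for named genes and chosen examples. Some examples were dropped after their values under the alternatives were seen, so a count of sign changes is no rate over all genes. Estimates of 16 of the genes followed changed sign, none called under the alternatives that reversed them. Among them S100a8 (-0.71), Ifitm6 (-0.4), Csta2 (-0.4), Fgf23 (-0.36) and Malat1 (0.37, called with no filter) were not near 0 in the fit reported. For Parvb the estimate was 0 with RLE scaling, DESeq2 and limma-voom, 0.01 with upper-quartile scaling and with the block on 6 libraries, 0.16 without the first libraries and 0.15 without these and I209S P214L 2. For H2-T23 it was 0 with RLE scaling and DESeq2, 0.01 with upper-quartile scaling and 0.02 without the first libraries. Lilrb4a had -0.01 with limma-voom. Without the first libraries Spi1 had 0.02, Ifitm6 0.08, Nolc1 0 and Nras -0.02. Without these and I209S P214L 2, Mitf had -0.01, Spi1 0, Fgf23 0.61, Ifitm6 0.24, Csta2 0.15, B4galnt4 -0.29, Pf4 0.1 and Nolc1 0.04. With 1 library left out at a time, the estimate ran from -0.08 to 0.12 for Parvb, -0.12 to 0.22 for Lilrb4a, -0.03 to 0.22 for Il34, -0.04 to 0.04 for H2-T23, -0.1 to 0.05 for Spi1 and -1.19 to 0.09 for Fgf23. It ran from -0.81 to 0.09 for Csta2, -0.3 to 0.32 for B4galnt4, -2.57 to 1.87 for S100a8, -0.04 to 0.01 for Nolc1, -0.03 to 0.09 for Nras, -0.02 to 0.82 for Malat1 and -0.16 to 0.04 for Myc. Of the 44 list medians, 18 changed sign under some alternative. Depth limits the genes under 5 CPM, few of which could be bound within 1.5-fold.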
